A study of Homo sapiens with 8 samples.

Results

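The genes described here are 10 messenger RNAs reported, in human or mouse cells, as substrates of IRE1-dependent decay: BLOC1S1, SCARA3, COL6A1, SPARC, PDGFRB, HGSNAT, PMP22, RUVBL1, GALNT10 and PRKCD. They were chosen by name from the reported substrates, and not by their values, and all 10 have a row among the 18555 genes of the count table. RNA-seq compared 3 libraries of cells transfected with Allstar control siRNA (siNC) with 3 libraries of cells given an XBP1-specific siRNA (siXBP1). All 6 come from cells labelled HepG2, a line from a human liver tumour, and by the labels' protocols all were exposed to 30 nM thapsigargin for 3 hours, 2 days after transfection. The RNA-seq therefore has no group without thapsigargin, and it compares less with more XBP1 during endoplasmic reticulum (ER) stress.

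Thapsigargin blocks the calcium pump of the ER, and the loss of ER calcium sets off the unfolded protein response. IRE1, encoded by ERN1, is an ER sensor with an RNase on its cytosolic side. It cuts XBP1 mRNA, and the RTCB ligase joins the ends into the message for the transcription factor XBP1s. The same RNase cuts a further set of mRNAs, many of them at the ER membrane, whose fragments are then degraded, a process called regulated IRE1-dependent decay. In some mouse tissues the loss of XBP1 is known to raise IRE1 activity and the decay of such mRNAs. The comparison therefore bears on whether substrate levels differ when XBP1 is reduced.

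XBP1 mRNA was present at 552, 502 and 500 CPM (read counts divided by the library total, brought to one scale for all libraries) in the siNC libraries, and at 290, 299 and 276 CPM in the siXBP1 libraries. The groups did not overlap, and the fall came to a log2 fold change of -0.84 (SE 0.08) with an adjusted p of 0.0331 by edgeR's quasi-likelihood test over 14337 genes. Leaving out 1 library ended the call in 4 of 6 cases, with an edgeR adjusted p of 0.175 without replicate 2 and 0.213 without replicate 3 of siNC, and of 0.475 without replicate 1 and 0.284 without replicate 2 of siXBP1. The log2 fold change itself lay between -0.88 and -0.80 in the 6 cases. Library totals lay between 38209972 and 38890070 counts. A first principal component with 59.1% of the variance set siNC replicate 1 (score 0.64) and siXBP1 replicate 3 (score -0.65) apart at opposite ends. For the substrates and ERN1, estimates that change sign without these libraries are given with and without them. Estimates of related genes and of the other lists are given with all 6 libraries only, and some of them may rest on these libraries. Of 12 liver markers, 7 have a row, and 0 of these reached 1 CPM, with a summed level of 0.463 to 0.746 CPM in siNC and 0.877 to 1.35 CPM in siXBP1. Of 10 fibroblast or mesenchymal markers, 9 have a row and 6 reached 1 CPM, with a summed level of 1279 to 1317 CPM in siNC and 1133 to 1294 CPM in siXBP1. The results therefore concern cells labelled HepG2 whose liver markers were nearly absent. Of 7 epithelial markers 4, all keratins, reached 1 CPM, with a summed level of 5996 to 7920 CPM in siNC and 5770 to 7315 CPM in siXBP1. Of 5 pericyte and muscle markers 4 did so, of 4 endothelial markers 1 and of 5 leukocyte markers 0.

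No substrate passed the test. Of the 10 genes, 9 passed edgeR's filter on low counts, and 0 of these 9 had an adjusted p under 0.05, where 0.00697% of all genes tested did so (XBP1 alone). By estimate 4 were higher in siXBP1 (PMP22, PRKCD, GALNT10 and HGSNAT) and 5 lower (PDGFRB, SCARA3, COL6A1, RUVBL1 and BLOC1S1). Of all genes tested, 52.8% had higher and 47.2% lower estimates. With the first component as a covariate 0 of 9 substrates passed, where 1.2% of all genes tested did. The median log2 fold change was -0.01 over the 9 substrates and 0.01 over all genes tested. The median size, without regard to sign, was 0.12 and 0.10. The 9 edgeR adjusted p-values were all 1.00.

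**Figure D1:**
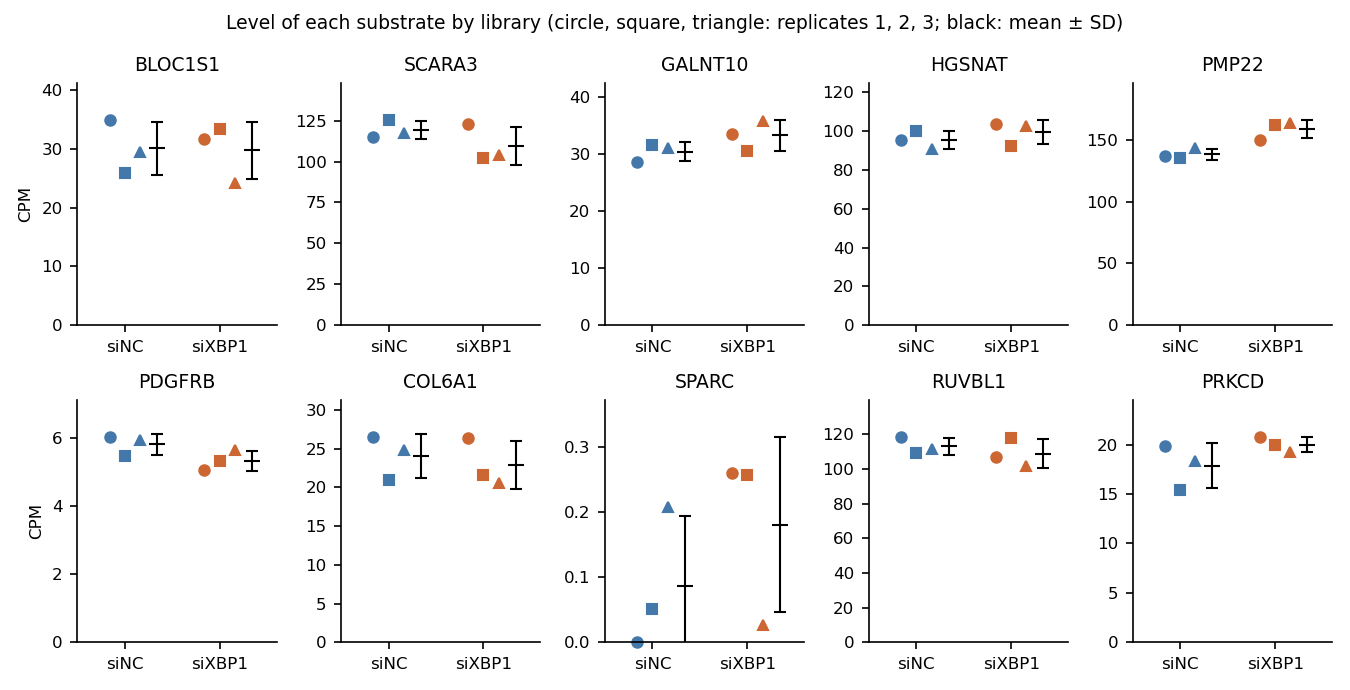
Level of each of the 10 substrates in CPM (vertical axes, starting at 0 and different for each gene) in 3 siNC libraries (blue) and 3 siXBP1 libraries (orange), with circle, square and triangle for replicates 1, 2 and 3 and black bars for the mean ± SD. Only for PMP22 do all siXBP1 libraries (150 to 164 CPM) lie above all siNC libraries (135 to 143 CPM), and SPARC does not exceed 0.26 CPM.

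The promoters of the substrates were searched for the elements through which XBP1s acts, to show where a direct effect of the factor on transcription could be sought. RefSeq promoter windows (GRCh38.p14, 250 bases before to 50 bases after a start site) matched 7 of the 10 substrates, in 13 windows. The full ER stress response element, in which CCAAT is followed after 9 bases by CCACG, was found on either strand in 0 of these 7 genes, in 2 of 11 XBP1s target genes and in 0.137% of the 13912 genes of the table with a window, all counted by gene with any window. The unfolded protein response element core, TGACGTG, was found in 0 of 7 substrates, 4 of 11 target genes and 3.08% of all genes. CCACG, which is also the second part of the full element, is frequent: it was found in 3 of 7 substrates, 11 of 11 target genes and 53.2% of all genes. The E-box CACGTG, searched for after the sequence of BLOC1S1 had been seen, was found in 1 of 7 substrates, 3 of 11 target genes and 11.6% of all genes. The sites follow 5′ to 3′ on the strand of the gene with the motif's fixed bases in capitals, first for substrates and then for 2 target genes with the full element.
BLOC1S1 (CACGTG, chr12:55716024-55716053, plus strand): acctCACGTGacacagcggtCACGTGacat
GALNT10 (CCACG on the other strand, chr5:154190665-154190694, plus strand): accccctCGTGGcggcggCGTGGtggcggc
RUVBL1 (CCACG on the other strand, chr3:128123998-128124027, minus strand): tcaaatccggggCGTGGtcccactgtgctc
SPARC (CCACG, chr5:151686990-151687019, minus strand): gaggaggagggaCCACGgggtggaggggag
PDIA6 (full element, chr2:10812847-10812876, minus strand): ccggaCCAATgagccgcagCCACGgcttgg
CRELD2 (full element on the other strand, chr22:49918549-49918578, plus strand): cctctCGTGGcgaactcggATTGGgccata
The BLOC1S1 motifs begin at positions -18 and -2 from the start site, and the GALNT10 motifs at -61 and -50. The stretches printed for them run from -22 to 8 and from -68 to -39. A match is a description of the letters in the window and not a binding site.

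BLOC1S1 (gene ID 2647, chromosome 12, 55716046 to 55719703, GRCh38) is the substrate found most often across cell types. It encodes a subunit shared by the BLOC-1 and BORC complexes, which act in the making and the movement of lysosomes and related organelles. Its mRNA stood at 34.9, 25.9 and 29.4 CPM in the siNC libraries and at 31.7, 33.3 and 24.2 CPM in the siXBP1 libraries. The highest value belonged to siNC replicate 1 and the lowest to siXBP1 replicate 3, and the groups overlapped widely. The means were 30.1 ± 4.53 and 29.7 ± 4.87 CPM (SD, n = 3 each), and the log2 fold change was -0.01 (SE 0.16, 95% interval -0.37 to 0.34).

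The sign of the BLOC1S1 estimate turned with the libraries used. The log2 fold change was 0.10 without siNC replicate 1 and 0.10 without siXBP1 replicate 3. A fit that took the first-component scores as a covariate gave 0.07 (SE 0.09, edgeR adjusted p = 0.838). Without both end libraries, siNC at 25.9 and 29.4 CPM lay below siXBP1 at 31.7 and 33.3 CPM. The share of all genes with groups apart in this smaller set was not counted, so the separation cannot be set against a background. The BLOC1S1 estimate without both end libraries was 0.24 (SE 0.12, edgeR adjusted p = 0.272, unadjusted p = 0.0494, where 18.3% of 14416 genes had an unadjusted p under 0.05). BLOC1S1 passed the threshold in 0 of the 16 alternatives. The part of the first component in its values was not tested. The other 7 subunits of BLOC-1 had 3 higher and 4 lower estimates, between -0.14 (BLOC1S3) and 0.08 (BLOC1S6), and 0 passed. The start of BLOC1S1 overlaps the gene ITGA7 (16 to 60 counts per library), and the readthrough transcript BLOC1S1-RDH5 was not analysed here.

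**Figure D2:**
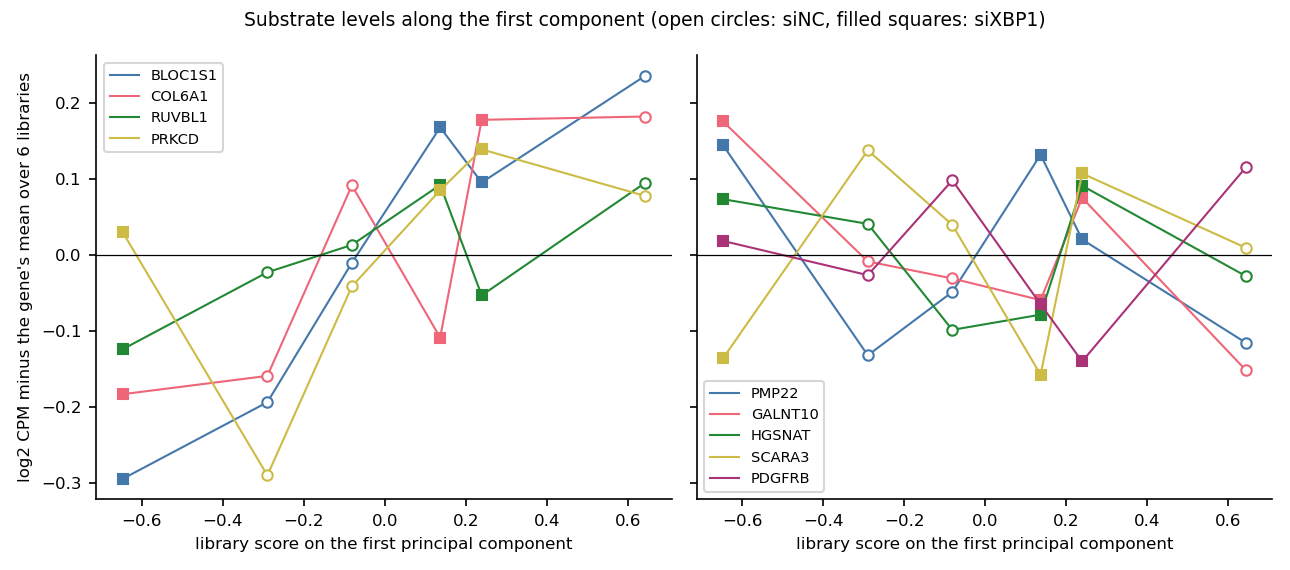
Deviation of log2 CPM from each gene's mean over 6 libraries (vertical axis) against the library's score on the first principal component (horizontal axis), for 4 substrates on the left and 5 on the right, with open circles for siNC and filled squares for siXBP1. BLOC1S1 goes from -0.29 in siXBP1 replicate 3 to 0.24 in siNC replicate 1, the libraries at the ends, whereas GALNT10 goes from 0.18 to -0.15 between the same libraries.

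SCARA3, GALNT10 and HGSNAT encode membrane proteins of the secretory and lysosomal compartments, and none of the 3 passed the test. SCARA3 (chromosome 8, 27633463 to 27734141) encodes a class A scavenger receptor-like protein that protects cells from oxidative damage. It had 115, 125 and 117 CPM in siNC and 123, 102 and 104 CPM in siXBP1. Replicates 2 and 3 of siXBP1 lay below every siNC library, and replicate 1 lay among them. The means were 119 ± 5.59 and 110 ± 11.5 CPM (SD, n = 3 each), and the log2 fold change was -0.12 (SE 0.10, 95% interval -0.35 to 0.11). It stayed below 0 in all 16 alternatives, between -0.21 without siXBP1 replicate 1 and -0.08 without siXBP1 replicate 2. Its gene model overlaps CCDC25 (2775 to 3446 counts) at one end.

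GALNT10 (chromosome 5, 154190733 to 154420984) encodes a Golgi enzyme that starts O-linked glycans by adding N-acetylgalactosamine. It had 28.5, 31.5 and 31.0 CPM in siNC and 33.4, 30.4 and 35.8 CPM in siXBP1. The groups overlapped because siXBP1 replicate 2 lay below 2 siNC libraries. The means were 30.4 ± 1.59 and 33.2 ± 2.69 CPM (SD, n = 3 each), and the log2 fold change was 0.13 (SE 0.11, 95% interval -0.12 to 0.38). Without both end libraries of the first component it was 0.03. Of 9 tested enzymes of the same family, 4 had higher and 5 lower estimates, and 0 passed. The members with the most CPM, GALNT2 and GALNT1, had log2 fold changes of -0.05 and -0.05.

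HGSNAT (chromosome 8, 43140464 to 43202855) encodes the lysosomal membrane acetyltransferase of heparan sulfate breakdown. It had 95.5, 100.2 and 91.0 CPM in siNC and 104, 92.2 and 102 CPM in siXBP1. The groups overlapped, with siXBP1 replicate 2 near the lowest siNC library, and the log2 fold change was 0.06 (SE 0.09, 95% interval -0.15 to 0.27). HGSNAT gave the estimate closest to 0 after those of BLOC1S1 and RUVBL1. The other heparan sulfate enzymes had 3 higher and 4 lower estimates among 7 tested, from -0.27 (IDUA) to 0.14 (IDS), and 0 passed.

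PMP22 and PDGFRB encode proteins of the plasma membrane, and PMP22 was the one substrate whose groups did not overlap. PMP22 (chromosome 17, 15229779 to 15265326) encodes a small membrane protein that is best known from the myelin of peripheral nerve. It had 137, 135 and 143 CPM in siNC and 150, 162 and 164 CPM in siXBP1, so all 3 siXBP1 libraries lay above all 3 siNC libraries. Of all genes tested, 5.01% had groups apart with siXBP1 higher, and 8.75% had groups apart in either direction, so 1 of 9 substrates is near the background. The means were 138 ± 4.26 and 159 ± 7.41 CPM (SD, n = 3 each).

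The log2 fold change of PMP22 was 0.20 (SE 0.09), which is 1.15-fold with a 95% interval of 1.00 to 1.32. Its unadjusted p was 0.0482, which 3.61% of genes tested also reached at 0.05, and after edgeR's adjustment over all genes the p was 1.00. The estimate lay between 0.17 and 0.24 in the 16 alternatives, and the smallest adjusted p among them was 0.155, with the first component as a covariate. PMP22 thus had the same direction in all of these fits, which share their libraries and are not independent, and passed the threshold in none. Among its 3 relatives, EMP1 also had groups apart (96.3 ± 7.32 CPM in siNC, 115 ± 2.64 in siXBP1, SD, n = 3 each). Its log2 fold change was 0.26 (SE 0.09, edgeR adjusted p = 1.00). EMP3 had 0.12 and EMP2 -0.04, and 0 of the 3 passed. Of the 45 tested relatives of all substrates, 3 had groups apart with siXBP1 higher and 0 with siXBP1 lower. The shares of all genes tested were 5.01% and 3.74%.

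PDGFRB (chromosome 5, 150113839 to 150155845) encodes a receptor tyrosine kinase for platelet-derived growth factor. It was near 6 CPM, with 234, 212 and 229 counts in siNC and 194, 206 and 215 in siXBP1. In CPM these were 6.02, 5.45 and 5.95 against 5.04, 5.31 and 5.63. A single siXBP1 library, replicate 3, lay above the lowest siNC library, replicate 2. The log2 fold change was -0.12 (SE 0.16, 95% interval -0.47 to 0.23), the lowest estimate among the substrates. It was below 0 in all 16 alternatives, from -0.18 to -0.08. Of the 4 ligand genes tested, PDGFA (0.20) and PDGFD (0.59, SE 0.53, under 1 CPM) had higher estimates and PDGFB (-0.0025) and PDGFC (-0.05) lower ones, and 0 passed.

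**Figure D3:**
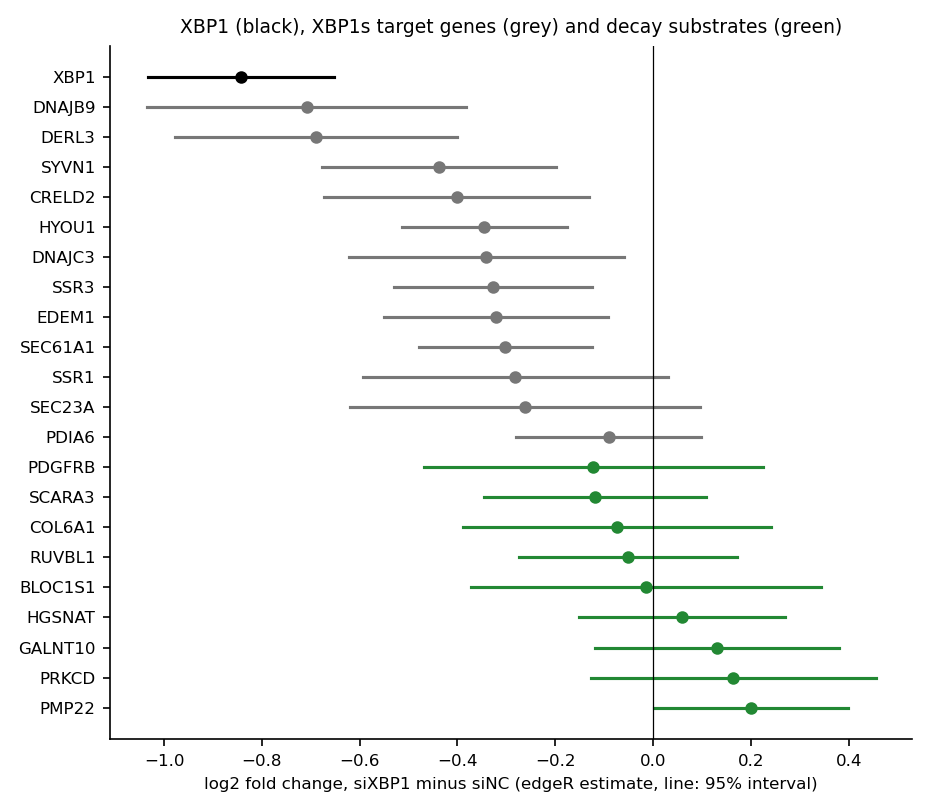
Log2 fold changes (siXBP1 minus siNC, horizontal axis) by edgeR with their 95% intervals for XBP1 (black), 12 XBP1s target genes (grey) and the 9 tested substrates (green). The target genes lie between -0.71 and -0.09, all below 0, and the substrates between -0.12 and 0.20.

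COL6A1 and SPARC encode secreted proteins of the extracellular matrix, and neither showed a difference that passed. COL6A1 (chromosome 21, 45981770 to 46005048) encodes the alpha 1 chain of collagen VI. It had 26.5, 20.9 and 24.8 CPM in siNC and 26.4, 21.6 and 20.5 CPM in siXBP1. The 2 groups covered nearly the same range, and the log2 fold change was -0.07 (SE 0.14, 95% interval -0.39 to 0.24). Without both end libraries of the first component it was 0.07. Its partner chains COL6A2 and COL6A3 had 0.654 ± 0.212 and 0.190 ± 0.197 CPM in siNC and 0.554 ± 0.0778 and 0.226 ± 0.198 CPM in siXBP1 (SD, n = 3 each), so that both stayed under 1 CPM on average in both groups.

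SPARC (chromosome 5, 151661096 to 151686915), a collagen-binding matrix protein, was too low for a test. It had 0, 2 and 8 counts in siNC and 10, 10 and 1 in siXBP1, and did not pass the filter. A floor of 3 counts corresponds to 0.0771 to 0.0785 CPM in these libraries, and 3 of the 6 libraries, siNC replicates 1 and 2 and siXBP1 replicate 3, lay under it. The highest value was 0.260 CPM, in siXBP1 replicate 1. A difference between values this near the floor could therefore not be told in these libraries. The tested relatives SMOC1, SPOCK1 and FSTL1 passed the filter, and their log2 fold changes of 0.05, 0.17 and -0.01 did not pass.

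RUVBL1 and PRKCD encode proteins that do not enter the secretory pathway, and both overlapped between groups. RUVBL1 (chromosome 3, 128064785 to 128153914) encodes an ATPase of chromatin remodelling complexes and of the R2TP co-chaperone. It had 118, 109 and 112 CPM in siNC and 107, 118 and 102 CPM in siXBP1. Replicate 2 of siXBP1 lay within the siNC range, whereas replicates 1 and 3 lay below all siNC libraries. The log2 fold change was -0.05 (SE 0.10, 95% interval -0.27 to 0.17), and 0.03 without both end libraries of the first component. Of its 3 R2TP partners, RUVBL2 had -0.14, PIH1D1 -0.22 and RPAP3 0.06, and 0 passed.

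The gene model of RUVBL1 overlaps that of SEC61A1, a subunit of the ER translocon and one of the XBP1s target genes. SEC61A1 had 14399 to 19600 counts per library, against 3882 to 4599 for RUVBL1, and its CPM was lower in all siXBP1 libraries (486 ± 15.2 against 394 ± 17.5, SD, n = 3 each, log2 fold change -0.30, edgeR adjusted p = 1.00). The strand setting of the counting is not given in the sources used here, so reads from the shared stretch may not be separated. RUVBL1 also overlaps EEFSEC (886 to 1242 counts).

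PRKCD (chromosome 3, 53161209 to 53192717) encodes protein kinase C delta, a signalling kinase linked to apoptosis. It had 19.9, 15.4 and 18.3 CPM in siNC and 20.7, 20.0 and 19.2 CPM in siXBP1. The siXBP1 libraries were close together, and siNC replicate 1 lay among them while siNC replicate 2 was the lowest. The means were 17.9 ± 2.27 and 20.0 ± 0.752 CPM (SD, n = 3 each), and the log2 fold change was 0.16 (SE 0.13, 95% interval -0.13 to 0.45). It was 0.06 without siNC replicate 2 and 0.28 without both end libraries of the first component (edgeR adjusted p = 0.253), and above 0 in all 16 alternatives. Among 6 other tested protein kinase C genes, 3 had higher and 3 lower estimates, and 0 passed.

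**Figure D4:**
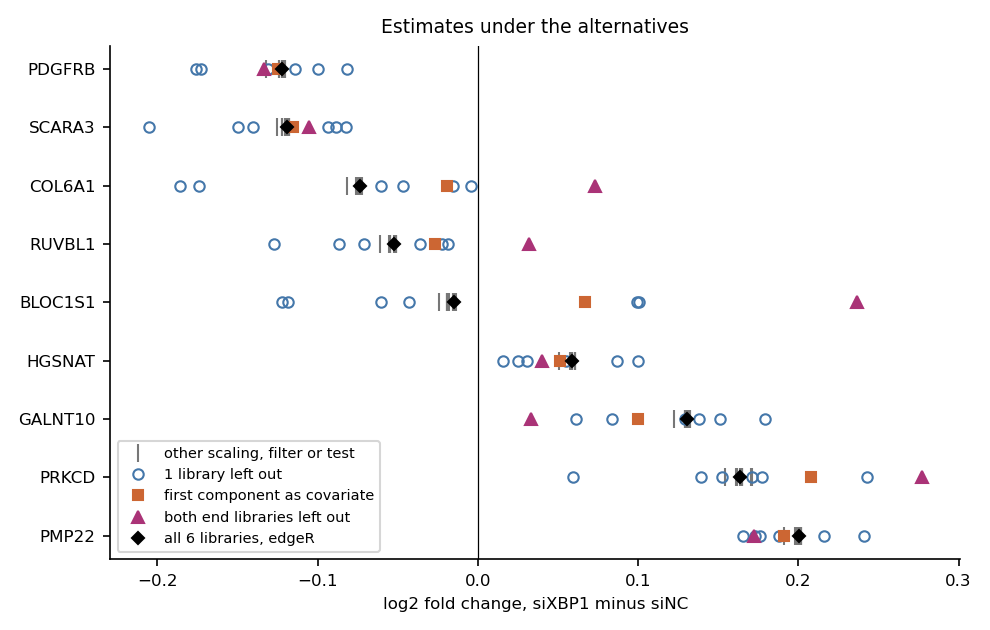
Log2 fold changes (siXBP1 minus siNC, horizontal axis) of the 9 tested substrates with all 6 libraries (black diamonds) and under 16 alternatives, with open circles for 1 library left out, orange squares for the first component as a covariate and purple triangles for both end libraries left out. Estimates of 6 genes stay on one side of 0, and those of BLOC1S1, COL6A1 and RUVBL1 cross it.

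The intervals show the sizes that these libraries could still hide. Over the 9 tested substrates the 95% intervals ran from 0.722-fold (PDGFRB) to 1.37-fold (PRKCD), so each interval excluded a 2-fold change in either direction. They are not widened for the number of genes and rest on the spread between 3 libraries a group. The 12 XBP1s target genes had lower estimates throughout, with a median log2 fold change of -0.33 and groups apart with siXBP1 lower for 8 of 12, against 3.74% of all genes tested. This list was drawn up with earlier results of these data known, and 0 of its genes passed. With all 6 libraries, the intervals of PMP22, PRKCD, GALNT10, HGSNAT and RUVBL1 ended above that median. Those of BLOC1S1, SCARA3, COL6A1 and PDGFRB reached below it, so for these 4 genes this fit does not tell a loss of that size from none. This split depends on the fit. With the first component as a covariate, BLOC1S1 had 0.07 (SE 0.09), SCARA3 -0.12 (SE 0.07), COL6A1 -0.02 (SE 0.10) and PDGFRB -0.12 (SE 0.17). Without siXBP1 replicate 2, RUVBL1 had -0.13 (SE 0.10). Intervals of these other fits are not given here.

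The enzymes that cut, join and remove these mRNAs were measured as well. ERN1, the gene for IRE1, had 5.53, 9.03 and 8.23 CPM in siNC and 9.90, 6.42 and 11.7 CPM in siXBP1, with siNC replicate 1 lowest and siXBP1 replicate 3 highest. Its log2 fold change was 0.30 (SE 0.24, 95% interval -0.25 to 0.84, edgeR adjusted p = 1.00), and -0.08 without both of those libraries. An mRNA level does not show the activity of the RNase. Of the 10 genes of the IRE1 arm and RNA ligation, 9 were tested, 5 had higher and 4 lower estimates, and XBP1 alone passed. XBP1 is the siRNA's own target, so its call says nothing about the rest of the list. The ligase gene RTCB had -0.01 and its partner DDX1 0.01. Of 18 genes for the decay of cleaved mRNA, 17 were tested with 9 higher and 8 lower estimates, and 0 passed. The estimates lay between -0.26 (EXOSC4) and 0.14 (SE 0.27, XRN1, the exonuclease that works from the 5′ end). XRN1 had 23.9, 42.6 and 42.3 CPM in siNC and 30.2, 33.1 and 56.5 CPM in siXBP1. Its higher estimate thus rests on siNC replicate 1 and siXBP1 replicate 3, since among the other libraries the siNC values were the higher ones.

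Of 7 other reported substrates, 5 passed the filter, with 4 estimates higher and 1 lower, a median log2 fold change of 0.07 and 0 genes passing. TNFRSF10B, which encodes a death receptor for TRAIL, had groups apart (208 ± 4.51 CPM in siNC and 230 ± 13.9 in siXBP1, SD, n = 3 each). Groups apart with siXBP1 higher were found for 5.01% of all genes tested, and groups apart in either direction for 8.75%. The log2 fold change of TNFRSF10B was 0.15 (SE 0.08), with an edgeR unadjusted p of 0.112 and an adjusted p of 1.00. CD59, TGOLN2 and DGAT2 had 0.07, 0.09 and 0.00, and PER1 -0.05. TAPBP and CES1 stayed under the filter. Over the 45 tested relatives of all substrates, 21 estimates were higher and 24 lower, with a median of -0.01 and 0 called.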

How the data were processed

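The authors deposited 1 table of read counts per NCBI Gene ID, not normalized, with 1 column per library. Per the submitters' processing notes, STAR 2.5.2a, featureCounts 1.5.0 of Subread and hg38 were used. Per the labels' protocols a stranded TruSeq kit was used, but no source used here gives the annotation or the strand setting of the counting. Even values made up 75.8% to 80.5% of counts from 1 to 40, so counts may exceed fragments. The 2 XBP1s ChIP-seq samples were not analysed here.

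Columns were matched to samples by title. IDs were named from RefSeq (GRCh38.p14), with 18526 of 18555 matched. The other 29 held 0.00349% of counts and kept their ID. After filterByExpr and TMM scaling, genes were tested in edgeR 4.0.16 (R 4.3.3) by the two-sided quasi-likelihood test with group as the only term, Benjamini-Hochberg adjustment over 14337 genes and a threshold of 0.05. SEs are the estimate divided by the square root of F, and 95% intervals use the t quantile at the fit's degrees of freedom. The procedure was tested on simulated data. All pairs of replicates differed by more than sampling noise. Separate cultures are not stated in the labels, so the spread behind each p-value is that between these libraries and may be technical. Floors cover counting error only.

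The members were chosen by name and not by their values, but they and all lists were drawn up with earlier results of these data known. Named are all members, XBP1, ERN1 and, from other lists, called genes or those with the most CPM. Others named for the ends of a range or for groups apart were chosen after their values were seen. Counts and CPM of different genes are not per length, since transcript lengths were not used here, and do not rank their levels. The planned searches for hairpins in transcripts and for hydrophobic stretches in proteins were not run, since transcript and protein sequences were not used here. In bulk RNA, fewer cells of a type and less RNA per cell cannot be told apart. A further gene planned for the list of other reported substrates is not reported here.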

Additional observations from a re-analysis of the deposited data

How the results depend on the processing

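Of 144 estimates of substrates under 16 alternatives (other scalings, filters and tests, DESeq2 1.42.0, limma-voom 3.58.1, the replicate block, the first component, and libraries left out), 138 kept their direction and 6 turned. In all 16, 0 substrates passed. These fits use the same 6 libraries or part of them, so the counts are not independent and do not measure how sure a direction is. Turned were BLOC1S1 with the first component as a covariate (0.0666), without both of its end libraries (0.236), without siNC replicate 1 (0.100) and without siXBP1 replicate 3 (0.0996), and, without both end libraries, COL6A1 (0.0733) and RUVBL1 (0.0319). ERN1, which is no substrate, also turned in that fit (-0.0791). With 1 library left out BLOC1S1 lay between -0.122 and 0.100. Genes called numbered 1 with all libraries, 0 with upper-quartile factors, 0 at a threshold of 0.01, 15 with DESeq2, 172 with the covariate, 702 without both end libraries and 0 to 1 with 1 library left out. XBP1 lost its call with upper-quartile factors (-0.851, adjusted p = 0.0546) and at a threshold of 0.01 (-0.842), and with 1 library left out it lay between -0.880 and -0.798. It kept its call with DESeq2 (-0.841, DESeq2 adjusted p = 1.58e-12). In edgeR it also did so with the covariate (-0.817, adjusted p = 2.46e-09) and without both end libraries (-0.761, adjusted p = 1.02e-07). The component comes from these same libraries and is taken as known, so calls with it may be too many.

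Whether the replicate numbers pair the libraries was not settled. Deviations of same-numbered libraries correlated at 0.614, -0.380 and 0.450 across genes. Replicates 1 and 3 of siNC correlated best with their own number, and siNC replicate 2 with siXBP1 replicate 3 (0.665). The deviations are from means of 3 libraries and so depend on each other, and the correlations cannot decide on a pairing. With the replicate block 1 gene was called, as without it, and the BLOC1S1 estimate was -0.0194 and that of PMP22 0.199. The alternatives planned for hairpins and hydrophobic stretches were not run. SPARC is limited by its 0 to 10 counts, and PDGFRB with 194 to 234 counts has few reads as well.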
